A study of Sus scrofa with 8 samples.

Results

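Kinesins are motors that step along or trim microtubules, and centromere proteins (CENP) build the platform on each chromosome to which the spindle attaches. All genes whose symbol in the deposited table names a numbered or C-type kinesin (KIF, KIFC) or a lettered centromere protein were taken, which gave 51 of the 25285 genes, 35 kinesins and 16 CENP genes, with 0 repeated symbols. The question was how these genes differed between differentiated and undifferentiated pig muscle cells, and whether kinesins of mitosis and kinesins of cargo transport differed alike.

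The libraries came from primary cells of pig skeletal muscle, strain LYD in the labels, grown in vitro; the extraction protocol calls them MuSCs. The 4 groups were differentiated females, differentiated males, undifferentiated females and undifferentiated males, with 2 libraries each, and no genotype change or drug is named for any of them. The medium, the day of collection and the animals behind each replicate are not given in the sources used here. Values are FPKM, fragments per kilobase of transcript adjusted for library size, so that levels may be compared between genes. In lists of 4 values the order is female replicates 1 and 2, then male replicates 1 and 2.

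Dividing cells use one set of kinesins to separate the spindle poles, move and align chromosomes and cut the cell apart, while other kinesins carry vesicles, mitochondria and mRNA or position nuclei, in cells that do not divide as well. At the centromere the histone variant CENPA marks the site, the constitutive centromere-associated network (CCAN) binds it, and the outer kinetochore holds the microtubules. Skeletal muscle precursors leave the cell cycle as they fuse into multinucleated fibres, in which nuclei are moved and spread by microtubule motors.

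The state labels were read against marker genes. All 7 of the muscle markers MYOG, DES, CDH15, NCAM1, ACTA1, CKM and MYH3 rose and MYOD1 fell (limma, adjusted), and the 8 genes summed to between 9959 and 14090 FPKM in differentiated libraries against 552 to 905 FPKM in undifferentiated ones. PAX7 and MYF5 were not analysed here. Endothelial markers summed to at most 7.53 FPKM and immune markers to at most 17.1 FPKM in any library, with EMCN and LYZ listed at 0 in all 8. The fibroblast and matrix markers summed to 624, 601, 1466 and 1066 FPKM in differentiated libraries and 368, 390, 782 and 524 FPKM in undifferentiated ones, so that male replicate 1 was highest in both states. Smooth muscle and pericyte markers, of which ACTA2 and TAGLN are also made by differentiating muscle cells, summed to 1128 to 1361 FPKM against 30.1 to 59.0 FPKM. How many reads each library had is unknown. Depth estimated from low values, relative to the shallowest library, ran from 1 to 1.64 in differentiated and from 1.67 to 2.27 in undifferentiated libraries.

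Of the 51 genes, 42 averaged at least 1 FPKM over the 8 libraries and were tested. Among them CENPA, KIF1A, KIF18B, CENPM and KIF14 averaged under 1 FPKM in differentiated cells and met this minimum through their undifferentiated values. In differentiated against undifferentiated cells 5 rose and 30 fell (limma, Benjamini-Hochberg adjusted p under 0.05 over all 12963 tested genes), and 7 did not pass. Of all tested genes 50.0% passed, 18.0% upward and 31.9% downward, and their median log2 fold change was -0.18. The median of the 42 was -1.45. All 4 differentiated libraries lay below all 4 undifferentiated ones in 28 of the 42, against 30.2% of all tested genes, and above them in 5, against 17.1%. In bulk libraries fewer cells expressing a gene and less of its RNA per cell cannot be told apart. The direction differed between roles, as the heat map of all 42 genes shows.

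**Figure D1:**
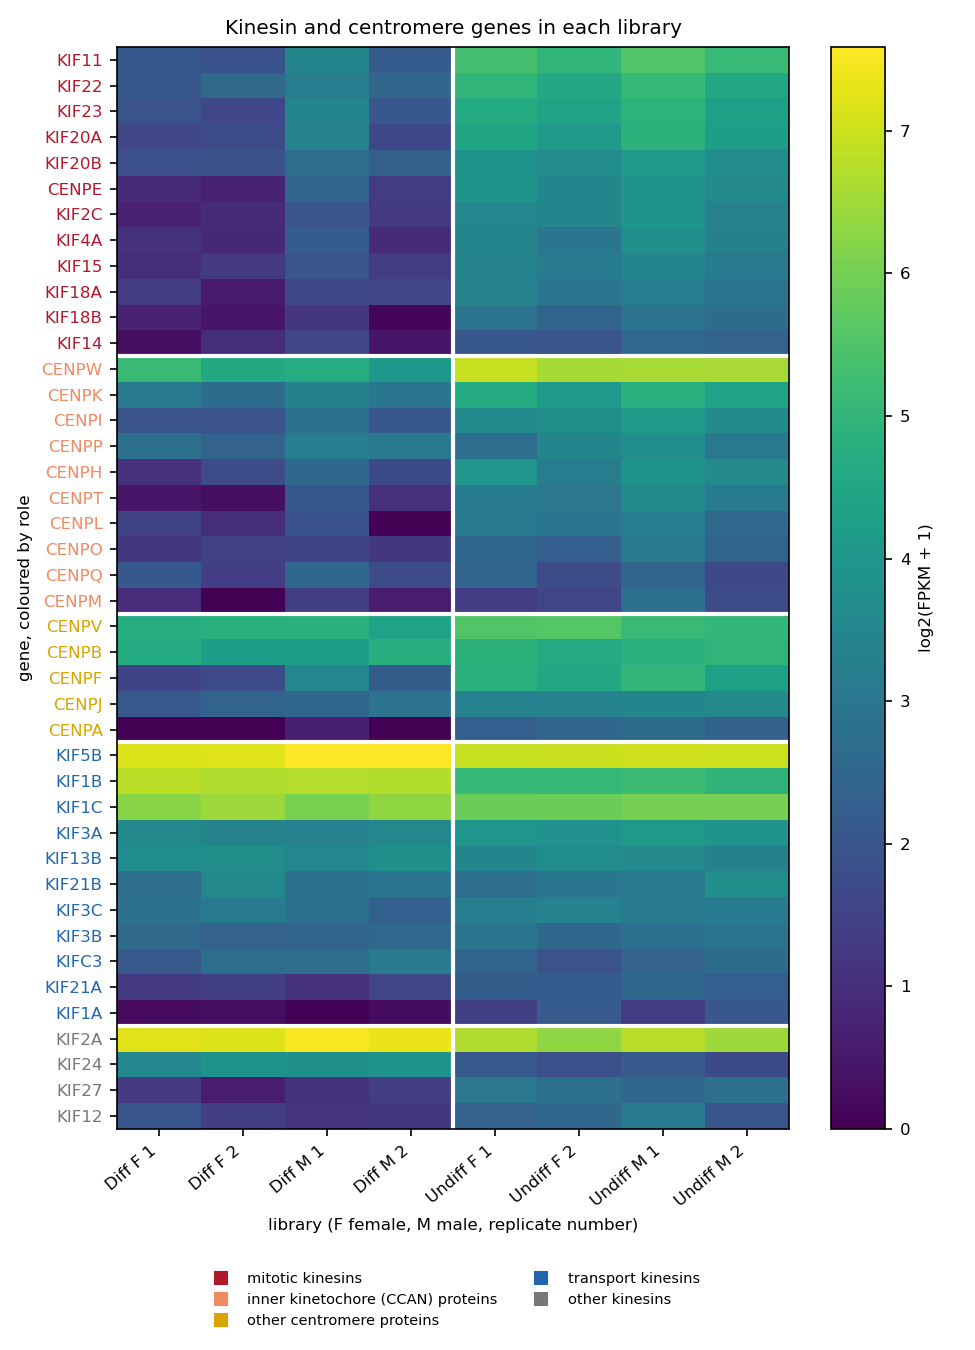
Heat map of log2(FPKM + 1) for the 42 tested kinesin and centromere genes (rows, coloured by role) in each library (columns, differentiated left of the white line, undifferentiated right of it). The 12 mitotic kinesins are darker in all 4 differentiated libraries, with differentiated male replicate 1 the lightest of these, while KIF5B, KIF1B, KIF1C and KIF2A are bright in every library.

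All 12 tested mitotic kinesins fell, with log2 fold changes between -2.84 and -1.43 and a median of -2.16. Their differentiated means stood at 10.5% to 27.9% of the undifferentiated means, and in none of the 12 did the states overlap. KIF11, the motor that pushes the spindle poles apart (ENSSSCG00000010471, chromosome 14, 113726041 to 113777308 on Sscrofa10.2), was at 3.22, 2.75, 9.88 and 3.64 FPKM in differentiated libraries and 40.2, 30.8, 45.4 and 33.6 FPKM in undifferentiated ones. Even its highest differentiated library held less than its lowest undifferentiated one. KIF11 averaged 4.87 ± 3.36 FPKM in differentiated against 37.5 ± 6.59 FPKM in undifferentiated cells (SD, n = 4 libraries each). On the log2(FPKM + 1) scale it had the largest fall of all 42 genes (-2.84 ± 0.286 SE, limma adjusted p = 0.000615). As a share of the undifferentiated mean CENPA, KIF1A and KIF18B fell further, to 3.16%, 6.34% and 10.5% against 13.0% for KIF11. KIF15, which helps KIF11 to keep the spindle bipolar, fell to 1.76 ± 0.892 FPKM, against 8.79 ± 1.34 FPKM (log2 -1.87, limma adjusted p = 0.000858).

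The kinesins that work at chromosomes fell as well. CENPE, a kinesin at the kinetochore that carries chromosomes to the spindle equator (ENSSSCG00000023296, chromosome 8, 126761297 to 126838534), was at 0.887, 0.664, 4.45 and 1.54 FPKM in differentiated cells against 14.1, 10.2, 14.3 and 10.8 FPKM in undifferentiated cells. KIF2C, which takes apart wrongly attached microtubules at the centromere (ENSSSCG00000003931, chromosome 6, 154001352 to 154023020), was at 0.678, 0.921, 2.99 and 1.47 FPKM against 10.5, 10.1, 14.3 and 9.35 FPKM. In both genes the states were separated and the highest differentiated value was that of male replicate 1. CENPE changed by -2.36 ± 0.273 (limma adjusted p = 0.000981) and KIF2C by -2.33 ± 0.211 (limma adjusted p = 0.000432), on the log2 scale with SE. The chromosome-arm motors KIF22 and KIF4A changed by -2.21 and -2.10, and KIF18A and KIF18B, which restrain microtubule growth in the spindle, by -1.84 and -2.11. KIF18B reached the lowest share of its undifferentiated mean among the mitotic kinesins, at 0.673, 0.345, 1.28 and 0.0765 FPKM in differentiated cells against 6.39, 4.42, 6.45 and 5.39 FPKM in undifferentiated cells.

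Among the kinesins of the central spindle and cytokinesis, KIF23, a subunit of the centralspindlin complex (ENSSSCG00000004969, chromosome 1, 185212193 to 185303450), was at 2.82, 2.09, 9.66 and 3.15 FPKM in differentiated libraries against 24.6, 20.4, 28.7 and 18.7 FPKM in undifferentiated ones. KIF20A, which brings Aurora B kinase to the midzone (ENSSSCG00000014326, chromosome 2, 145901081 to 145910004), was at 2.05, 2.35, 9.31 and 2.13 FPKM against 21.4, 16.4, 28.5 and 17.6 FPKM. In both, 3 differentiated libraries lay close together and male replicate 1 stood apart above them. KIF23 changed by -2.32 ± 0.322 (limma adjusted p = 0.00193) and KIF20A by -2.33 ± 0.390 (limma adjusted p = 0.00395). KIF20B, which acts late in cytokinesis, fell by 1.63. KIF14, which recruits citron kinase to the midbody, fell by 1.43, the smallest change of the 12 on the log2(FPKM + 1) scale (limma adjusted p = 0.0110). As a share of the undifferentiated mean KIF20B changed least, at 27.9% against 23.4% for KIF14. The 13th mitotic kinesin, KIF2B, was too low to test, at 0.487, 0.393, 0.611 and 0.0979 FPKM in differentiated libraries and listed at 0 in all 4 undifferentiated ones.

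Of the 11 tested transport kinesins KIF5B, KIF1B and KIF1C rose, KIF3A, KIF3C, KIF21A and KIF1A fell, and KIF13B, KIF21B, KIF3B and KIFC3 did not pass. The 3 rises and 4 falls of 11 stand beside 18.0% and 31.9% of all tested genes, so the counts say little of these genes as a group. Their median log2 fold change was -0.11, beside -0.18 for all tested genes and -2.16 for the mitotic kinesins, and it ran from -0.26 to 0.09 when each library was left out in turn. No test between the 2 role groups was made, because the genes were grouped with earlier results of these data known. The plot of fold changes by role shows every mitotic kinesin left of every transport kinesin except KIF1A, which lay between KIF20B and KIF14. That scale, log2(FPKM + 1), understates changes of low genes such as KIF1A. As a share of the undifferentiated mean KIF1A stood at 6.34%, lower than any tested mitotic kinesin (10.5% to 27.9%).

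**Figure D2:**
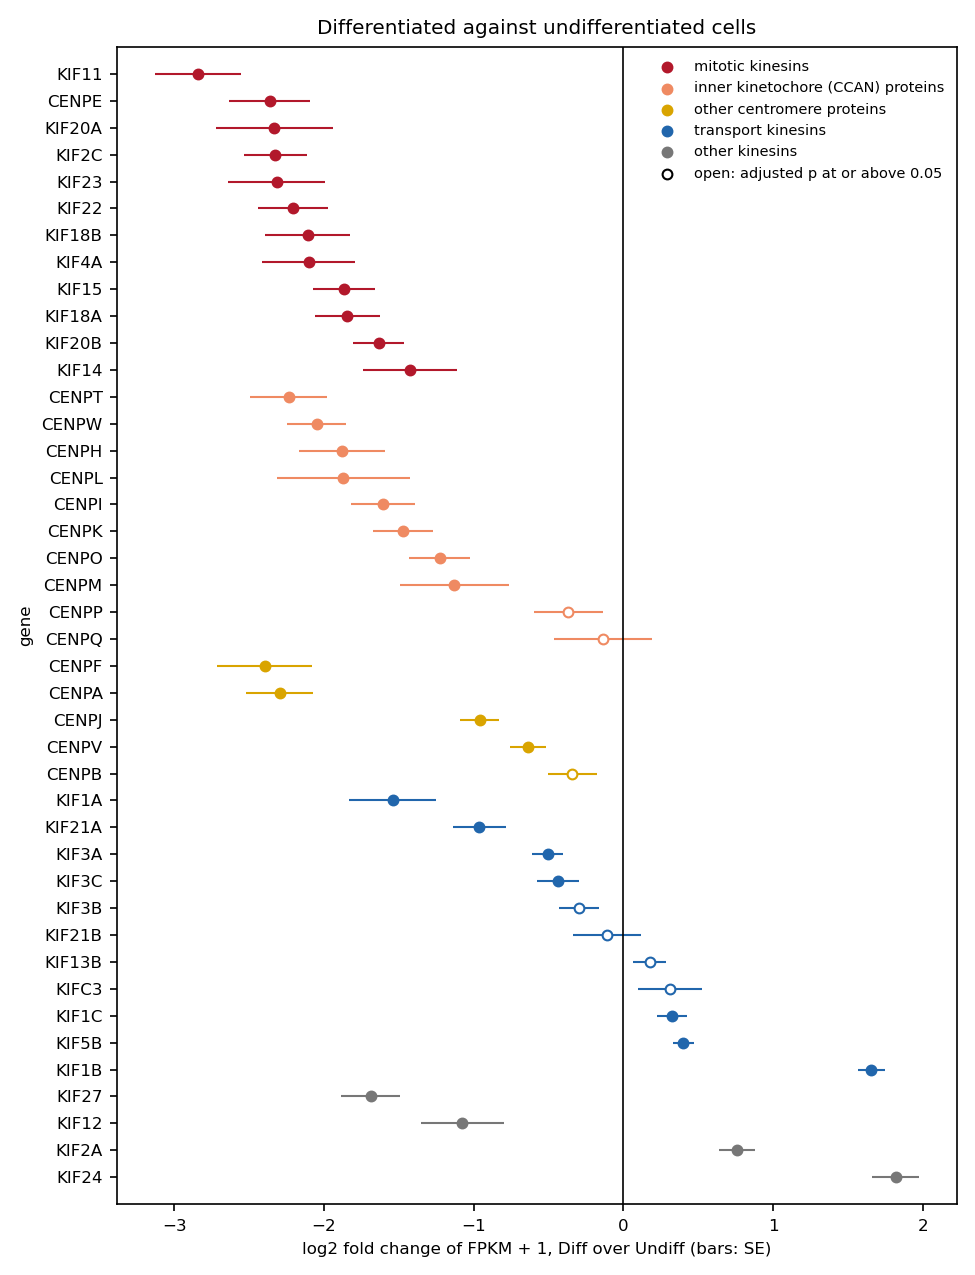
Log2 fold change of FPKM + 1, differentiated over undifferentiated cells, for the 42 tested genes, one row each and coloured by role; bars are ± 1 SE from limma and open circles mark adjusted p at or above 0.05. Mitotic kinesins run from -2.84 to -1.43, transport kinesins from -1.54 to 1.66.

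KIF1B carries mitochondria and vesicle precursors and lies on chromosome 6, 64444216 to 64593489 (ENSSSCG00000003401). It was at 109.8, 102.3, 106.2 and 104.1 FPKM in differentiated cells and 33.1, 32.3, 36.1 and 29.9 FPKM in undifferentiated cells. The 4 libraries of each state were nearly level and the states lay far apart. The ratio of means was 3.21, with a log2 fold change of 1.66 ± 0.0885 SE and the smallest adjusted p of the 42 genes (limma adjusted p = 6.71e-05). Its sister gene KIF1A, known from neurons as a carrier of synaptic vesicle precursors (ENSSSCG00000016401, chromosome 15, 157512036 to 157570407), went the opposite way, at 0.158, 0.217, 0.0571 and 0.197 FPKM against 1.69, 3.55, 1.51 and 3.17 FPKM (log2 -1.54 ± 0.289, limma adjusted p = 0.00609). With a mean of 1.32 FPKM it was the tested gene nearest the minimum, and KIF26B, at 0.406 FPKM, was the nearest below it.

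KIF5B, the ubiquitous kinesin-1 heavy chain that spreads nuclei along muscle fibres in mice (ENSSSCG00000011027, chromosome 10, 47232798 to 47289099), was the most abundant of all 51 genes. It was at 142.9, 148.3, 190.2 and 191.5 FPKM in differentiated libraries and 119.5, 125.8, 130.7 and 128.0 FPKM in undifferentiated ones. Differentiated males held more than differentiated females, and both more than any undifferentiated library. The rise was small and passed the test (log2 0.40 ± 0.0704, limma adjusted p = 0.00474). KIF1C, which moves vesicles and integrins, was at 75.3, 87.8, 65.3 and 80.1 FPKM against 58.0, 57.7, 64.0 and 65.0 FPKM. Its lowest differentiated and highest undifferentiated libraries were almost level, and its rise (log2 0.32, limma adjusted p = 0.0372) lost the call in 8 of 16 other settings, where adjusted p reached 0.0981. The neuron-enriched heavy chains KIF5A and KIF5C, the latter read from a scaffold, were at 0.0320 FPKM or less and at 0 in every library. Another gene named KIF5C, on chromosome 15 and outside the 51, averaged 0.112 FPKM in differentiated and 0.560 FPKM in undifferentiated cells.

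The kinesin-2 motors of ciliary and membrane transport moved little. KIF3A was at 11.0, 9.59, 9.24 and 10.5 FPKM in differentiated cells against 14.8, 13.3, 16.5 and 14.3 FPKM in undifferentiated cells, with no overlap (log2 -0.51 ± 0.103, limma adjusted p = 0.00839). Its partner KIF3B did not pass (log2 -0.30, 95% interval -0.62 to 0.03). KIF3C, at 6.22, 8.01, 5.83 and 4.09 FPKM against 8.48, 9.27, 7.92 and 7.77 FPKM, overlapped between states by 1 library, and its fall (log2 -0.44, limma adjusted p = 0.0412) lost the call in 9 of 16 other settings, with adjusted p up to 0.208. The span of KIF3C overlaps ASXL2 on the same strand, which was at 13.1 ± 0.357 FPKM in differentiated and 13.3 ± 1.17 FPKM in undifferentiated cells, so that fragments may be divided between them.

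KIF21A, which restrains microtubule growth at the cell cortex, was at 1.42, 1.64, 1.13 and 2.04 FPKM in differentiated cells against 3.68, 3.59, 4.84 and 3.77 FPKM in undifferentiated cells and fell without overlap (log2 -0.96 ± 0.176, limma adjusted p = 0.00555). Its relative KIF21B overlapped widely, with a log2 difference of -0.11 and an interval of -0.66 to 0.44. KIFC3, a minus-end motor, had 0.31 (interval -0.21 to 0.83), and KIF13B, a vesicle carrier, 0.18 (interval -0.09 to 0.44). Neither passed, although KIF13B did so after median-ratio scaling (log2 0.37, limma adjusted p = 0.0313), which moved the median of all tested genes up by 0.19.

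Of the 4 tested kinesins outside both roles, 2 rose and 2 fell. KIF2A trims microtubule ends in cells that do not divide as well as in spindles and is read here from scaffold GL896294.1 (ENSSSCG00000030186). It was at 149.5, 145.2, 182.6 and 163.8 FPKM in differentiated libraries against 102.7, 80.2, 107.5 and 87.8 FPKM in undifferentiated ones, without overlap (log2 0.76 ± 0.119, limma adjusted p = 0.00306). KIF2A and KIF2C, both microtubule depolymerases, therefore moved in opposite directions, as KIF1B and KIF1A did.

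KIF24, a centriolar kinesin that restrains assembly of the primary cilium (ENSSSCG00000010984, chromosome 10, 36654640 to 36739474), had the largest rise of the 42 genes. It was at 10.6, 13.5, 13.1 and 14.1 FPKM in differentiated cells against 3.34, 2.62, 3.49 and 2.26 FPKM in undifferentiated cells. The states lay far apart (log2 1.82 ± 0.155, limma adjusted p = 0.000348). The span of KIF24 overlaps UBAP1, on the opposite strand, which was at 39.4 ± 2.71 FPKM in differentiated and 47.0 ± 2.94 FPKM in undifferentiated cells and did not pass, and whether counting used the strand is not stated. KIF27, a relative of the Hedgehog regulator KIF7, was at 1.39, 0.533, 1.17 and 1.59 FPKM against 7.02, 5.87, 4.92 and 5.81 FPKM and fell (log2 -1.69 ± 0.195, limma adjusted p = 0.000986). KIF12 was at 2.97, 1.65, 1.19 and 1.35 FPKM against 4.28, 4.84, 7.49 and 3.07 FPKM and fell by 1.08 (limma adjusted p = 0.0195), a call that 4 of the 15 other settings that tested it ended.

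The 4 most abundant kinesins, KIF5B, KIF2A, KIF1B and KIF1C, were the 4 that rose besides KIF24. Summed over the kinesins taken by symbol, CENPE included, FPKM came to 559, 575, 668 and 633 in differentiated libraries. In undifferentiated libraries the sum was 579, 517, 640 and 542, so that the totals overlapped while the make-up did not. Kinesins without a symbol in the deposited table, among them KIFC1, KIF7, KIF13A and KIF16B, were left out of the sum. Mitotic kinesins made 3.68%, 3.68%, 9.41% and 4.05% of that sum in differentiated cells against 33.5%, 29.2%, 35.1% and 29.0% in undifferentiated cells. KIF2A, which also acts in spindles, was not counted as mitotic, and the mitotic share depends on that placing. It made 26.3 ± 0.908% of the sum in differentiated against 16.6 ± 0.954% in undifferentiated cells (SD, n = 4). The 4 abundant kinesins made 84.1 ± 1.81% against 55.4 ± 2.24% (SD, n = 4), and KIF1B alone 17.5 ± 1.66% against 5.78 ± 0.323%. In each library the median log2(FPKM + 1) of mitotic kinesins minus that of transport kinesins was -1.64, -2.26, -0.53 and -1.60 in differentiated cells and 0.45, 0.12, 0.78 and 0.14 in undifferentiated cells. The difference was negative in all 4 differentiated libraries and positive in all 4 undifferentiated ones.

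**Figure D3:**
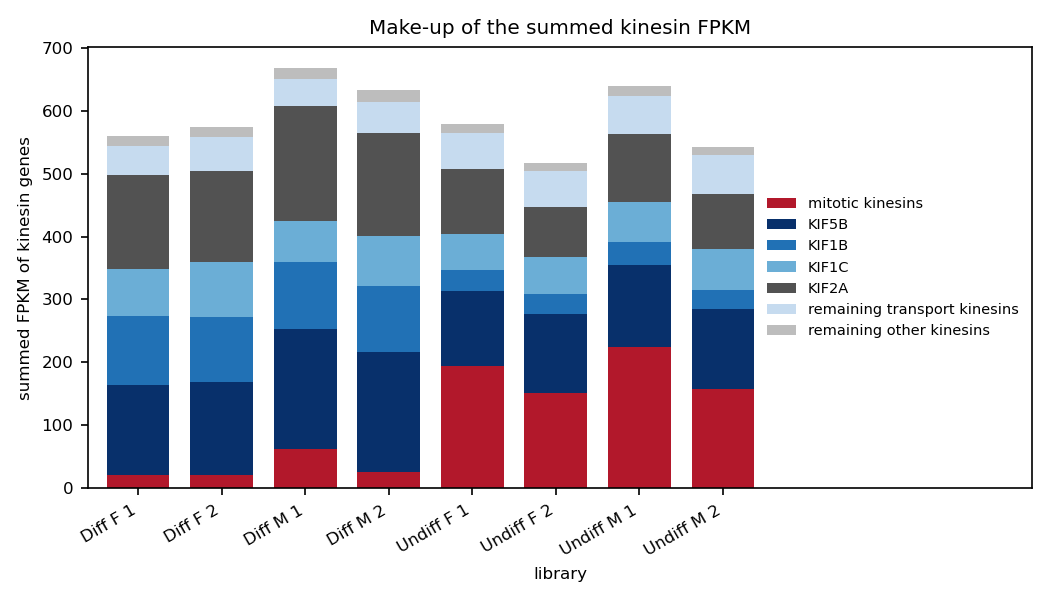
Stacked bars of summed FPKM of the kinesin genes taken by symbol, CENPE included (y axis, from 0), in each library, differentiated on the left. The bars are split into mitotic kinesins, the 4 most abundant kinesins and the remainder. The mitotic part is 20.6 to 62.8 FPKM in differentiated libraries and 151 to 225 FPKM in undifferentiated ones, with bars of similar height.

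At the centromere, CENPA, the histone that marks it (ENSSSCG00000008561, chromosome 3, 119265407 to 119272400), was listed at 0 in 3 differentiated libraries and at 0.573 FPKM in male replicate 1, against 3.86, 4.71, 5.44 and 4.13 FPKM in undifferentiated libraries. It fell (log2 -2.30 ± 0.224, limma adjusted p = 0.000548), and with a pseudocount of 0.1 in place of 1 the change was -4.84, since it is set by the values at 0. CENPF, a large kinetochore protein made late in the cell cycle (ENSSSCG00000015581, chromosome 9, 141697204 to 141740052), was at 1.87, 2.40, 10.6 and 3.69 FPKM against 27.0, 22.1, 31.0 and 18.7 FPKM. Again the states did not overlap and male replicate 1 was the highest differentiated library (log2 -2.40 ± 0.319, limma adjusted p = 0.00166).

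The inner kinetochore proteins of the CCAN fell in 8 of 10 tested genes, against 31.9% of all tested genes, with a median log2 fold change of -1.54. CENPW, which pairs with CENPT in a histone-like fold on DNA, was the most abundant of them (ENSSSCG00000004219, chromosome 1, 40459699 to 40468997), at 34.1, 23.4, 25.2 and 15.6 FPKM in differentiated libraries against 120.8, 94.4, 95.1 and 96.7 FPKM in undifferentiated ones. CENPT was at 0.374, 0.231, 3.28 and 1.09 FPKM against 7.64, 7.12, 11.1 and 7.79 FPKM. Both partners fell, CENPW to 24.1% and CENPT to 14.8% of the undifferentiated mean, with log2 changes of -2.05 ± 0.196 (limma adjusted p = 0.000523) and -2.24 ± 0.258 (limma adjusted p = 0.000979). Male replicate 1 exceeded the mean of the remaining differentiated libraries 5.80 times in CENPT and 1.03 times in CENPW.

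CENPH, CENPI and CENPK form 1 subcomplex, and all 3 fell. CENPH was at 1.11, 2.32, 4.84 and 2.29 FPKM in differentiated libraries against 14.5, 8.09, 13.7 and 11.0 FPKM in undifferentiated ones (log2 -1.88 ± 0.287, limma adjusted p = 0.00277). CENPI was at 2.84, 2.83, 6.07 and 3.13 FPKM against 11.4, 12.8, 16.7 and 11.1 FPKM (log2 -1.61 ± 0.213, limma adjusted p = 0.00163). In both genes every differentiated value lay below every undifferentiated one. CENPK changed by -1.47 and CENPO by -1.23. CENPL was at 1.96, 0.972, 2.76 and 0 FPKM against 7.65, 6.85, 8.57 and 5.06 FPKM and fell (log2 -1.87 ± 0.443, limma adjusted p = 0.0147), a call that 4 of the 15 other settings that tested it ended. CENPM fell by 1.13 and lost the call in 8 of 15.

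The CCAN genes that did not pass were CENPP and CENPQ, partners of CENPO. CENPQ was at 3.23, 1.62, 4.90 and 2.35 FPKM in differentiated cells and 4.43, 2.34, 4.50 and 2.21 FPKM in undifferentiated cells, with full overlap (log2 -0.14, interval -0.93 to 0.66, limma adjusted p = 0.753). CENPP had -0.37 (interval -0.93 to 0.19). Across its span lie 6 other genes of the table, most of them, ECM2 included, on the opposite strand. Whether counting used the strand is not stated, so that CENPP fragments may be divided between these genes.

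Among the remaining centromere proteins, CENPJ, a centriole assembly factor, was at 3.36, 4.34, 4.82 and 6.47 FPKM in differentiated libraries against 9.37, 9.41, 10.2 and 10.9 FPKM in undifferentiated ones (log2 -0.96 ± 0.129, limma adjusted p = 0.0017). CENPV, which binds microtubules at the spindle midzone, was at 24.8, 27.1, 27.6 and 19.9 FPKM against 45.0, 47.3, 34.2 and 31.5 FPKM (log2 -0.64 ± 0.120, limma adjusted p = 0.00628). Both fell without overlap but by less than CENPA and CENPF. CENPB, which binds centromeric satellite DNA, overlapped between states at 18.0 to 26.3 FPKM against 24.0 to 30.3 FPKM (log2 -0.34, interval -0.74 to 0.05), read from a gene model of 537 bp.

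The 4 differentiated libraries were not alike in these genes. Male replicate 1 was the highest differentiated library in 12 of 12 mitotic kinesins and 9 of 10 CCAN genes, against 29.7% of all tested genes, and in 0 of 11 transport kinesins. In mitotic kinesins it stood a median of 1.01 above the mean of the other three on the log2 scale. As a share of the undifferentiated mean, the median mitotic kinesin was at 11.6%, 8.86%, 35.4% and 12.9% in the 4 differentiated libraries, and the median transport kinesin at 79.8%, 118%, 76.8% and 84.0%. Without male replicate 1 the mitotic median over the pooled differentiated mean was 11.0% instead of 19.0%, all 12 still fell, and their median log2 fold change was -2.40. Over all 42 genes 5 rose and 29 fell without it.

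**Figure D4:**
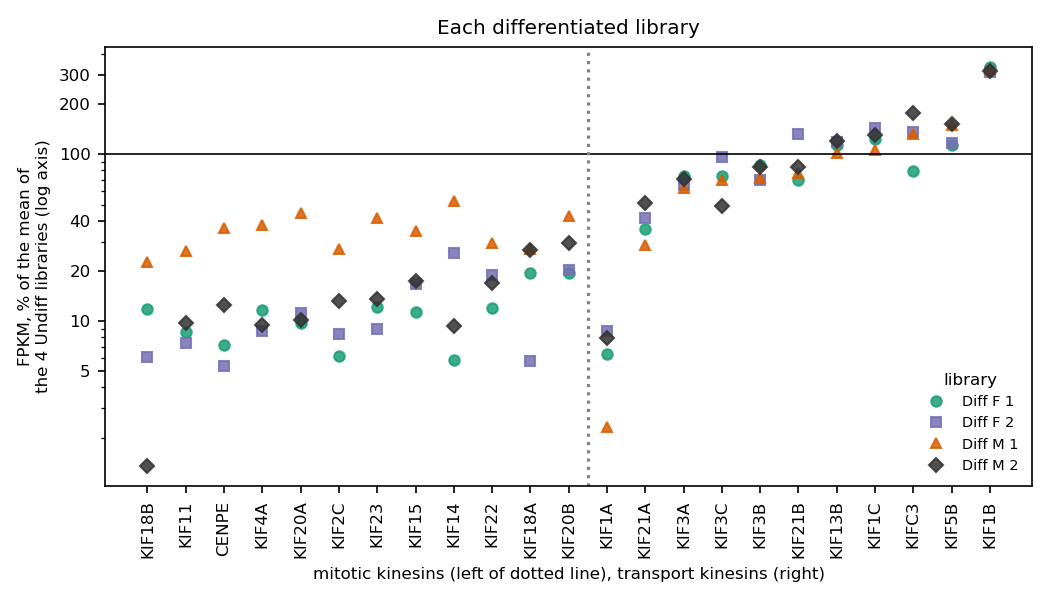
FPKM of each differentiated library as a percentage of the mean of the 4 undifferentiated libraries (log axis) for mitotic kinesins left of the dotted line and transport kinesins right of it; each symbol is 1 library. Differentiated male replicate 1 (triangles) is the highest in all 12 mitotic kinesins and in none of the transport kinesins.

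Other measures moved with that library. It was also the highest differentiated library in 9 of 9 proliferation genes (MKI67 at 2.57, 3.08, 8.57 and 3.68 FPKM). The same held in 8 of 8 tested fibroblast and matrix markers, a median of 1.54 above the other three on the log2 scale. COL1A1 was at 164.8, 177.7, 782.7 and 499.5 FPKM and DCN at 1.18, 4.20, 21.3 and 6.38 FPKM. PDGFRA, LUM, FAP and POSTN met the minimum of 1 FPKM only through that library, which partly fixed its place in them. Of the 4 tested smooth muscle and pericyte markers it was the highest in 3, with PDGFRB at 9.58, 11.6, 46.7 and 18.1 FPKM. It was the highest in 0 of 8 muscle markers and the lowest in 5. Undifferentiated male replicate 1 was likewise the highest undifferentiated library in 11 of 12 mitotic kinesins, a median of 0.41 above the other three. The same held in 8 of 10 CCAN genes and 9 of 9 proliferation genes, against 30.4% of all tested genes. It was also the highest in 6 of 8 fibroblast and matrix markers and 4 of 4 smooth muscle and pericyte markers. Of these markers PDGFRA, LUM, FAP, POSTN and CSPG4 averaged 0.104 to 0.617 FPKM in undifferentiated cells. They met the minimum through differentiated values, so their order among undifferentiated libraries is that of low values. In muscle markers undifferentiated male replicate 1 was the highest in 0 of 8 and the lowest in 1. The part of these markers in the kinesin levels was not tested.

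Within each sex the fall was also measured. In females 4 of the 42 rose and 24 fell, where 12.5% and 23.3% of all tested genes did, and in males 4 rose and 26 fell, where 12.9% and 20.1% did (limma, adjusted). All 12 mitotic kinesins passed in males and 11 in females, with KIF14 missing narrowly in females (limma adjusted p = 0.0529). KIF11 changed by -3.19 in females and -2.50 in males, and CENPE by -2.88 and -1.85. None of the 42 passed the test of the difference between the sexes' changes (limma, 0 at an unadjusted p under 0.05; 0.0231% of all tested genes passed), and for KIF11 the 95% interval of that difference was -0.71 to 2.09 on the log2 scale. KIF5B passed in males (log2 0.56, limma adjusted p = 0.00923) and not in females (log2 0.25, limma adjusted p = 0.104), and its difference did not pass either (interval -0.03 to 0.66).

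Female against male differentiated cells gave 0 calls among the 42 (limma, 7 at an unadjusted p under 0.05; 0.0463% of all tested genes passed, and 12.4% unadjusted). The 7 included KIF5B, at a log2 difference of -0.39, and CENPF, at -1.24, with male replicate 1 far above the other differentiated libraries. Female against male undifferentiated cells gave 0 calls too (limma, 1 at an unadjusted p under 0.05, CENPV, at a log2 difference of 0.48; 0.0926% of all tested genes passed).

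The partners of these proteins were counted from lists, beside the 31.9% of all tested genes that fell and the 18.0% that rose. At the outer kinetochore 7 of 8 tested genes fell, among them CASC5 (log2 -2.39) and NUF2 (-2.20), and DSN1 did not pass. Of the chromosomal passengers and the spindle checkpoint 9 of 9 fell, with AURKB at 2.76 ± 1.88 FPKM in differentiated cells against 22.3 ± 5.36 FPKM in undifferentiated cells (log2 -2.72) and the checkpoint kinase BUB1 at a log2 change of -2.59. Of spindle and midbody partners 8 of 8 fell, led by RACGAP1 (log2 -2.94, limma adjusted p = 0.00144), which pairs with KIF23 in centralspindlin, and HMMR (-2.69). Among genes for loading CENPA, the chaperone HJURP fell (log2 -1.82), as did OIP5 (-1.41) and NPM1 (-1.08), while RBBP4 and RBBP7 did not pass.

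Among the partners of transport kinesins, 4 of 14 light chains and adaptors rose, 4 fell and 6 did not pass, where 18.0% of all tested genes rose and 31.9% fell. All 3 tested light chains of kinesin-1 rose: KLC1 to 88.0 ± 6.37 FPKM against 66.9 ± 3.31 FPKM, KLC2 by 0.80 and KLC4 by 0.86 on the log2 scale (limma adjusted p = 0.00981, 0.00317 and 0.00146). MAP7D1, a microtubule protein of the MAP7 family that recruits kinesin-1, rose to 74.0 ± 11.8 FPKM, against 25.5 ± 1.44 FPKM (log2 1.49, limma adjusted p = 0.00019). The nuclear envelope linkers SYNE2, SUN1 and SUN2 fell, SYNE2 to 6.56 ± 0.205 FPKM against 29.2 ± 4.08 FPKM (log2 -1.99, limma adjusted p = 6.31e-05) and SUN2 by 1.22. The remaining fall was that of the adaptor TRAK2, to 11.0 ± 0.903 FPKM against 16.2 ± 0.973 FPKM (log2 -0.51, limma adjusted p = 0.0062). Of 19 tested genes of cytoplasmic dynein and dynactin, the motor that runs against most kinesins, 2 rose, 9 fell and 8 did not pass, beside the same shares of all tested genes, with a median log2 fold change of -0.01. The adaptor BICD1 (log2 0.85) and the light intermediate chain DYNC1LI1 (0.31) rose. DYNLT3 (-2.10) and NDE1 (-1.58), which also acts in mitosis, fell most. The dynein heavy chain DYNC1H1 and the nuclear envelope linker SYNE1 were not analysed here.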

How the data were processed

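The deposited table holds FPKM made by the authors from 100-bp paired ends of a stranded kit for small amounts of total RNA, although the labels give the molecule as polyA RNA. Per the submitters' processing notes, cutadapt 1.6, TopHat2 2.0.12.1, Cufflinks 2.2.1 and Sscrofa10.2 were used; their settings and strand use are not given in the sources used here. Whole reads were not recovered, so no count test was used.

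Values were taken as log2(FPKM + 1), which understates changes of low genes. Genes averaging at least 1 FPKM (12963) were fitted with limma 3.58.1 in R 4.3.3, with 1 mean per state and sex and a mean-variance trend; two-sided p-values were Benjamini-Hochberg adjusted over all of them and called under 0.05. "Rose" and "fell" mean called. The script was tested on simulated data. Whether replicates are separate animals is not given, so p-values reflect the spread among libraries alone, which may be technical.

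The members, roles, lists and tests were chosen with earlier results of these data known. Per-library values are given for the 5 most changed called members of each role, called members against their role's direction, KIF5B, KIF1B, KIF1C and KIF2A, those called between sexes and those nearest the minimum; KIF18B, CENPQ, KIF2B and others beyond this were chosen after their values were seen. Lists give their 2 most risen and 2 most fallen genes. A gene of the list for loading CENPA is not reported here. Alternatives were a pseudocount of 0.1, no minimum, a minimum of 5 FPKM, median-ratio scaling, quantile normalization, leaving out genes above 100000 FPKM, a replicate block, no trend and leaving out each library.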

Additional observations from a re-analysis of the deposited data

Results flagged for a closer look

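In 84 groups of 4 libraries (42 genes in 2 states), a single library stood far from the other three in 6, where chance gives about 1 in 20, or 4.2. That number takes the groups as independent, which genes that move together in a library are not. In 4 of the 6 that library was differentiated male replicate 1. It held 9.31 FPKM of KIF20A, against 2.05 to 2.35 FPKM in the other differentiated libraries, and 3.65 FPKM of KIF4A, against 0.841 to 1.13 FPKM. CENPI was at 6.07 FPKM there, against 2.83 to 3.13 FPKM. CENPA was at 0.573 FPKM, against 0, where any value above 0 would have been flagged. In undifferentiated cells CENPW was at 121 FPKM in female replicate 1, against 94.4 to 96.7 FPKM in the others, and KIF21A at 4.84 FPKM in male replicate 1, against 3.59 to 3.77 FPKM.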

How the results depend on the processing

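None of the 35 called genes changed direction in the alternatives that tested it, 14 to 16 for each gene. The calls lost were those of CENPL, CENPM, KIF12, KIF1C and KIF3C, and those gained KIF13B (rose after median-ratio scaling and quantile normalization) and CENPB (fell with a replicate block). A minimum of 5 FPKM left 28 genes, of which 18 fell: 2 of 8 transport kinesins, 0 of 2 other kinesins and 4 of 5 CCAN genes. Without a minimum KIF2B, the 1 mitotic kinesin to do so, and KIFC2 rose. The median of the other kinesins, -0.16, was -0.33 with a pseudocount of 0.1, 0.135 without a minimum, 1.29 with a minimum of 5 FPKM and 0.0243 after median-ratio scaling; that of transport kinesins was 0.0761 after that scaling and positive in 5 more settings, 0.0331 to 0.0949. Leaving out each library in turn, all 12 mitotic kinesins fell each time (median -2.40 to -1.87). Ranges were 26 to 29 for all falls, 2 to 4 for transport falls (2 without undifferentiated female replicate 2), -0.327 to 0.0109 for the other kinesins' median and 1 to 2 for their falls. Within females they were 2 to 4 rises and 16 to 26 falls, and within males 7 to 23 falls, the fewest without undifferentiated male replicate 1.

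The labels do not say whether a replicate number is shared between states. Same-numbered libraries of 1 sex correlated at 0.03, 0.07, -0.01 and -0.01 in their deviations across all tested genes, under the 0.1 set for pairing. They were not treated as pairs, although male replicate 1 was high in both states in mitotic kinesins. Genes with extreme values weigh heavily in these correlations. In undifferentiated male replicate 1 the distance from the other three reached 25.9 on the log2 scale. The correlations therefore cannot show whether the libraries are paired. With the replicate number as a block 4 genes rose and 31 fell, the mitotic median was -2.16 and KIF1C lost its call (limma adjusted p = 0.0731). Depth limits the 9 genes under 1 FPKM, and a value listed at 0 may be a failed estimate.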

Other observations

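Kinesin and centromere genes that carry their present symbol only in an Ensembl identifier table, or an older one in the deposited table, numbered 8, of which 7 were tested. KIFC1, the minus-end motor that focuses spindle poles, was at 1.30, 0.592, 4.07 and 1.01 FPKM in differentiated libraries against 12.5, 9.46, 15.1 and 8.75 FPKM in undifferentiated ones and fell (log2 -2.30, limma adjusted p = 0.00268). The CCAN genes CENPS, CENPU and CENPC fell by 1.77, 1.91 and 0.70, and KIF7, a Hedgehog regulator at the cilium, by 0.97. The transport kinesins KIF13A and KIF16B did not pass, at log2 differences of 0.01 (interval -0.23 to 0.24) and -0.01 (interval -0.37 to 0.34). A second gene named KIF5C, on chromosome 15, averaged 0.112 FPKM in differentiated and 0.560 FPKM in undifferentiated cells, below the minimum, while the one listed at 0 lies on a scaffold.

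Neighbouring genes did not always move alike. KIF1B, which rose, and CENPS, which fell, lie 40.9 kb apart on chromosome 6 (64444216 to 64593489 and 64634414 to 64644536). KIF14, which fell, and KIF21B, which did not pass, lie 247 kb apart on chromosome 10.

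Below the minimum of 1 FPKM, KIFC2 was at 0.879, 0.421, 0.529 and 0.543 FPKM in differentiated libraries and 0.225, 0.206, 0.235 and 0 FPKM in undifferentiated ones. KIF26B was at 0.251, 0.396, 0.978 and 0.168 FPKM against 0.208, 0.229, 0.597 and 0.417 FPKM. KIF6, KIF19 and KIF17 stayed between 0 and 0.809 FPKM with overlapping states, and KIF25 was listed at 0 in all 8 libraries.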
